A study of Sus scrofa with 4 samples.

Results

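A set of 10 genes long known as targets of the let-7 microRNAs was followed in pig induced pluripotent stem cells after knockdown of LIN28A: IGF2BP1, IGF2BP2 and IGF2BP3, HMGA1 and HMGA2, MYCN, ARID3A and ARID3B, NR6A1, and PRTG. They were taken by symbol from the deposited expression table, where all 10 had a row among 16026 genes, and all 10 had enough reads to be tested. The knockdown group, labelled shLin28a, had 2 libraries from cells with a short hairpin RNA directed at LIN28A. The reference was 2 Negative Control libraries, labelled shNC. All 4 libraries came from Bamei black pig cells, with a stage of 26.5 days in the labels. Whether the knockdown libraries share a hairpin, and whether the libraries of a group are separate cultures, is not stated, so every p-value rests on library-to-library spread that may be technical. Libraries are called knockdown 1 and 2 and control 1 and 2, and the numbers only name them.

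LIN28A binds the precursors of let-7 and keeps them from maturing in early embryonic cells. Mature let-7 represses messages that carry its sites, many of which encode proteins of fetal growth that are switched off as tissues mature. The genes described here fall among those messages: RNA-binding proteins that protect fetal transcripts, chromatin proteins of proliferating cells, a MYC transcription factor, and regulators and surface proteins of the early embryo. Levels of let-7 were not part of the data.

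Summed expected counts were 8061417 and 2400985 in knockdown 1 and 2, against 11847343 and 7125640 in control 1 and 2. LIN28A had 3.14 and 2.58 FPKM (fragments scaled to transcript length and library size) in the knockdown libraries and 32.6 and 17.2 FPKM in the controls. It rested on 12 and 3 counts in the knockdown libraries. In edgeR this gave a log2 fold change of −2.92 ± 0.49 (SE; adjusted p 0.259). Of 10 tested markers of pluripotent cells, 2 had positive and 8 negative log2 fold changes, LIN28A itself among the 8, and the median was −0.27. Relative to the control mean, the median of these markers was 0.07 in knockdown 1 and −0.85 in knockdown 2. POU5F1 had 41.4 and 16.6 FPKM in the knockdown libraries and 43.4 and 37.7 FPKM in the controls. SOX2 had 109 and 53.5 FPKM against 91.9 and 80.9 FPKM, and NANOG was between 0.39 and 0.70 FPKM in all 4 libraries. Besides LIN28A and SALL4, an unadjusted edgeR p under 0.05 was found for EPCAM and KLF4. EPCAM, an adhesion protein, had 0.10 and 0.68 FPKM in the knockdown libraries and 2.00 and 3.42 FPKM in the controls, and KLF4, a reprogramming factor, had 5.92 and 7.73 FPKM against 3.86 and 2.74 FPKM. CDH1, E-cadherin, had too few reads to be tested, with 0.03 and 0.10 FPKM against 0.31 and 1.09 FPKM.

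The 2 embryonic genes of the group, PRTG and NR6A1, had the lowest knockdown levels relative to control, followed by ARID3B and ARID3A. The 3 IGF2BP genes differed little between the groups, HMGA1 and MYCN lay in between, and HMGA2 alone had a positive log2 fold change. Negative log2 fold changes were thus found in 9 of 10 genes, with a median of −0.41, beside a median of 0.01 over all 11967 tested genes. For the 60 other let-7 targets that were tested, given further below, the median was 0.01 too. The 10 genes were picked after earlier results of these data had been seen. Their contrasts with all tested genes in this paragraph may therefore partly reflect that choice. No member was called by the edgeR quasi-likelihood test at an adjusted p under 0.05, and 0% of all tested genes were. LIN28A was not called either, so the lack of a call does not show that a member was unchanged. With the unadjusted edgeR p, 4 members lay under 0.05 on the lower side and none on the higher side, beside 3.45% and 4.26% of all tested genes. DESeq2 called 2 members lower, PRTG and NR6A1, and no member higher, where it called 0.292% of all genes lower and 0.869% higher. Both knockdown libraries lay below both controls in 6 members, against 22.9% of all genes, and above both in none, against 18.8% of all genes. The median of all genes was −0.18 when total counts replaced TMM scaling, and the median of the members was then −0.58. Because whole cultures were sequenced, fewer cells of a type and less RNA per cell cannot be told apart.

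**Figure D1:**
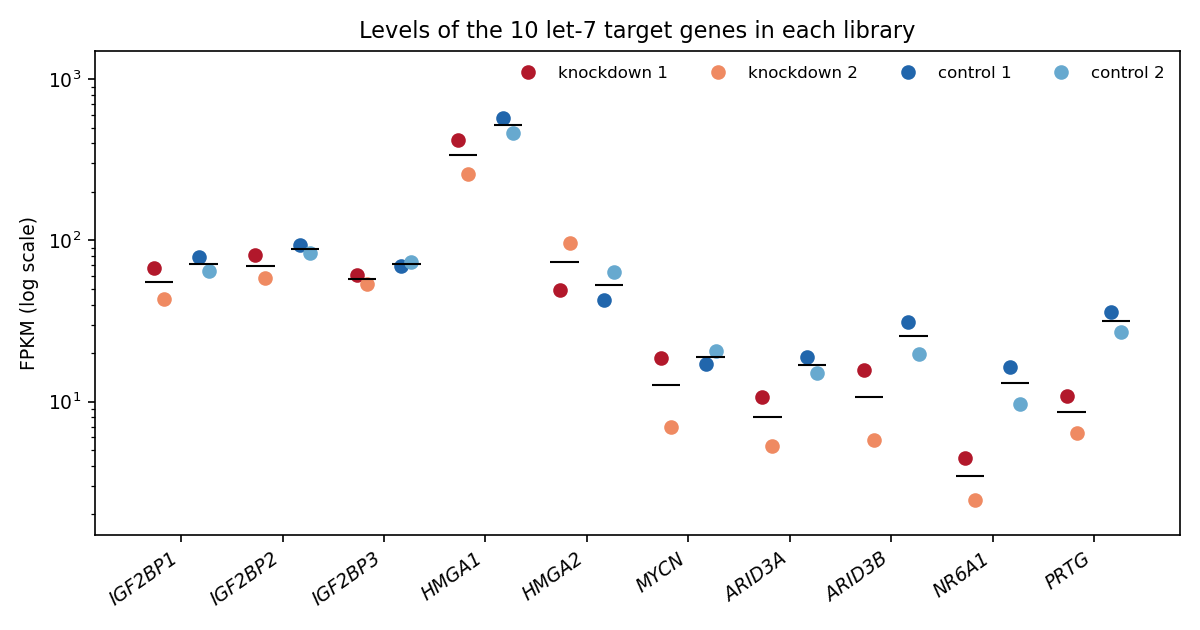
FPKM on a log axis for each of the 10 genes, with 1 point per library and a line at the mean of the 2 libraries of a group. PRTG and NR6A1 show the widest gaps between knockdown and control, and HMGA2 has its highest value, 96.6 FPKM, in knockdown 2.

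PRTG encodes protogenin, a transmembrane immunoglobulin-family protein of the early neural tube and paraxial tissue, and lies on chromosome 1 at 116132269 to 116275678 of Sscrofa11.1. Its level was 10.9 and 6.42 FPKM in knockdown 1 and 2, against 36.2 and 26.9 FPKM in control 1 and 2. The higher knockdown value was under the lower control value, so the groups did not overlap. The reads behind these levels numbered 912 and 160 in the knockdown libraries and 4475 and 1984 in the controls. The edgeR log2 fold change was −1.67 ± 0.28 (SE), with a 95% interval of −2.38 to −0.97. Its unadjusted p was 0.0015 and its adjusted p 0.259, while the adjusted p in DESeq2 was 0.000198. Relative to the control mean, PRTG was at −1.50 in knockdown 1 and −1.84 in knockdown 2 on the log2 scale, and control 2 was 0.40 below control 1 (a difference of −0.40).

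NR6A1, an orphan nuclear receptor of early embryos and germ cells, also called germ cell nuclear factor, lies on chromosome 1 at 265320597 to 265570941. It had 4.48 and 2.44 FPKM in knockdown 1 and 2, against 16.4 and 9.73 FPKM in control 1 and 2. No knockdown value reached a control value. Knockdown 2 held 34 reads, or 14.2 CPM (counts scaled to library size) with a 95% Poisson interval of 9.81 to 19.8, and control 2 held 57.8 CPM with an interval of 52.4 to 63.7. The edgeR log2 fold change was −1.72 ± 0.33 (SE; adjusted p 0.287 in edgeR and 0.0102 in DESeq2). The controls themselves differed by −0.69 on the log2 scale, control 2 minus control 1.

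PRTG and NR6A1 followed each other closely across the libraries. The ratio of PRTG to NR6A1 FPKM was 2.43 and 2.63 in the knockdown libraries, within the range of 2.21 and 2.76 in the controls. By Euclidean distance between log2 CPM profiles over the 4 libraries, each was the nearest of the 10 members to the other, at 0.23. IGF2BP1 and IGF2BP2 were closer to each other, at 0.16. Among all tested genes, the 3 closest to PRTG were PROX2, NR6A1 and GREB1L, at distances of 0.22, 0.23 and 0.24. The 3 closest to NR6A1 were SLC38A4, PRTG and ST6GALNAC4, at 0.17, 0.23 and 0.30. For ARID3A, the 3 closest genes were TTC7A, TCN2 and MRPL34, at shorter distances of 0.06, 0.07 and 0.09. These distances describe 4 libraries and carry no test.

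The surface receptors related to protogenin had values in both directions. IGDCC3, a let-7 target of the same immunoglobulin subfamily, had 86.0 and 30.9 FPKM in the knockdown libraries, against 153 and 163 FPKM in the controls. The edgeR estimate was −1.27 ± 0.40 on the log2 scale (SE; adjusted p 0.567). DCC, the netrin receptor of growing axons, had 15.7 and 9.87 FPKM against 4.61 and 4.65 FPKM, and both knockdown libraries lay above both controls. On the log2 scale the difference was 1.67 ± 0.21 (SE; adjusted p 0.219 in edgeR and 1.1e-05 in DESeq2). For NEO1, a receptor of netrins and repulsive guidance molecules, the log2 fold change was 0.62 ± 0.33 (SE), and for IGDCC4 it was 0.12 ± 0.20 (SE). PRTG lay below both controls in both knockdown libraries and DCC above both, so the groups had to separate in their ratio. The mean log2 ratio of PRTG to DCC FPKM was −0.58 in the knockdown libraries and 2.75 in the controls. The exact permutation p of that ratio was 0.333, the smallest that 2 libraries against 2 can give. Any ratio without overlap gives that value, so the p adds nothing to the lack of overlap. For PRTG to IGDCC3 the mean log2 ratios were −2.62 in the knockdown libraries and −2.34 in the controls, with an exact permutation p of 0.667.

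**Figure D2:**
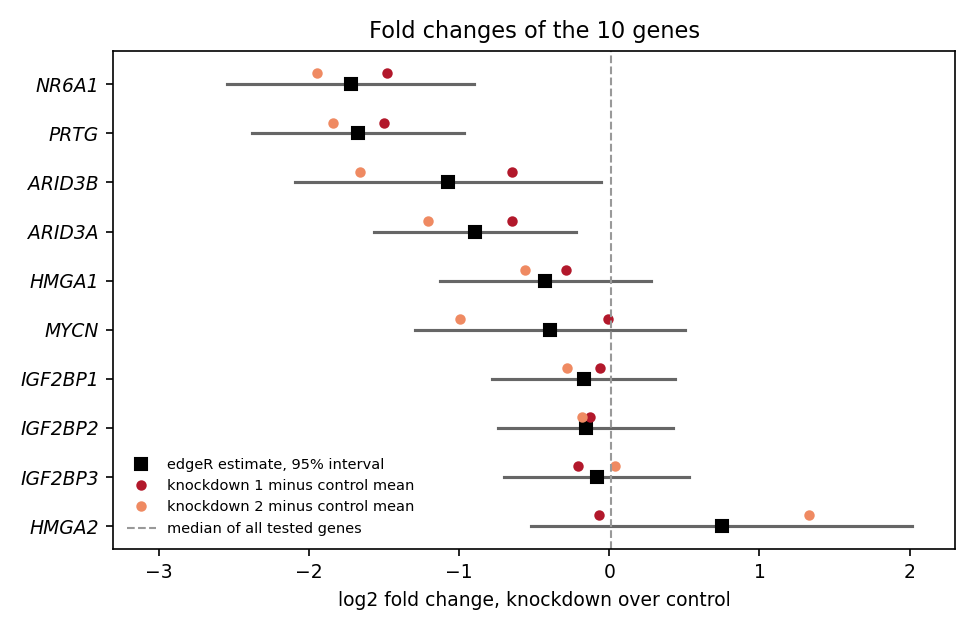
Log2 fold change of knockdown over control for each gene, with squares and bars for the edgeR estimate and its 95% interval and small points for each knockdown library minus the control mean. The intervals of NR6A1, PRTG, ARID3B and ARID3A lie below 0, and the 2 knockdown libraries are farthest apart for HMGA2, at −0.07 and 1.33.

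ARID3A and ARID3B encode AT-rich interaction domain proteins, DNA-binding factors that can act together and that let-7 is known to repress in mouse and human cells. ARID3A, on chromosome 2 at 77428618 to 77464916, had 10.6 and 5.33 FPKM in knockdown 1 and 2, against 18.8 and 15.01 FPKM in control 1 and 2. ARID3B, on chromosome 7 at 58932450 to 58998707, had 15.7 and 5.77 FPKM against 31.2 and 19.8 FPKM. In both genes the knockdown libraries lay below the controls, and knockdown 2 was the lowest of the 4. The log2 fold change of ARID3A was −0.89 ± 0.27 (SE; edgeR p 0.0182 unadjusted and 0.541 adjusted). That of ARID3B was −1.07 ± 0.40 (SE; edgeR p 0.0418 unadjusted and 0.606 adjusted). The wider error of ARID3B went with its spread within groups, since knockdown 2 was −1.01 from knockdown 1 and control 2 was −0.61 from control 1 on the log2 scale. The ratio of ARID3B to ARID3A FPKM was 1.47 and 1.083 in the knockdown libraries and 1.66 and 1.32 in the controls, so it overlapped between the groups. The third gene of the subfamily, ARID3C, was between 0.32 and 1.27 FPKM in all libraries, with a log2 fold change of −0.88 ± 0.49 (SE). Of the other ARID genes listed, which encode chromatin remodelling subunits and further DNA-binding factors, ARID1A had a log2 fold change of 0.65 ± 0.31 (SE) and ARID2 one of 0.04 ± 0.21 (SE).

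MYCN, the MYC family transcription factor of embryonic and neural precursor cells, lies on chromosome 3 at 121543201 to 121549678. It had 18.6 and 6.93 FPKM in knockdown 1 and 2, against 17.2 and 20.7 FPKM in control 1 and 2. Knockdown 1 thus lay between the controls, and knockdown 2, with 50 reads, lay below both. The log2 fold change was −0.39 ± 0.35 (SE; adjusted edgeR p 0.702), and it was −0.04 when knockdown 2 was left out. Its 2 paralogues had positive values. MYC, the broadly expressed family member and itself a let-7 target, had 15.4 and 7.34 FPKM in the knockdown libraries against 5.64 and 3.02 FPKM in the controls. The estimate for MYC was 1.57 ± 0.39 on the log2 scale (SE; adjusted p 0.414 in edgeR and 0.105 in DESeq2). MYCL had 8.03 and 6.71 FPKM against 5.84 and 5.40 FPKM, which gave 0.63 ± 0.21 (SE) on the log2 scale (adjusted edgeR p 0.585).

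The make-up of the MYC family therefore differed between the libraries of the groups. MYCN held 44.2% and 33.0% of the summed FPKM of MYCN, MYC and MYCL in knockdown 1 and 2, against 60.0% and 71.1% in control 1 and 2. The ratio of MYCN to MYC was 1.21 and 0.944 in the knockdown libraries and 3.05 and 6.86 in the controls. The groups did not overlap in this ratio, which does not depend on how libraries are scaled. Single genes without overlap made up 22.9% (lower) and 18.8% (higher) of all tested genes. The exact two-sided permutation p of the ratio was 0.333, the smallest possible here. Any ratio without overlap gives that value, so the p adds nothing to the lack of overlap. The summed FPKM of the 3 genes was 42.0 and 21.0 in the knockdown libraries and 28.7 and 29.1 in the controls. Of the MYC, MAX and MLX network, 11 genes besides MYCN were tested, with 7 positive and 4 negative log2 fold changes and a median of 0.39, and only MYC and MYCL had an unadjusted p under 0.05. Of 29 tested genes that MYC proteins are known to activate, there were 12 positive and 17 negative values and a median of −0.02. LDHA, lactate dehydrogenase, was the only 1 of them under an unadjusted p of 0.05, with 502 and 230 FPKM in the knockdown libraries and 958 and 680 FPKM in the controls.

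**Figure D3:**
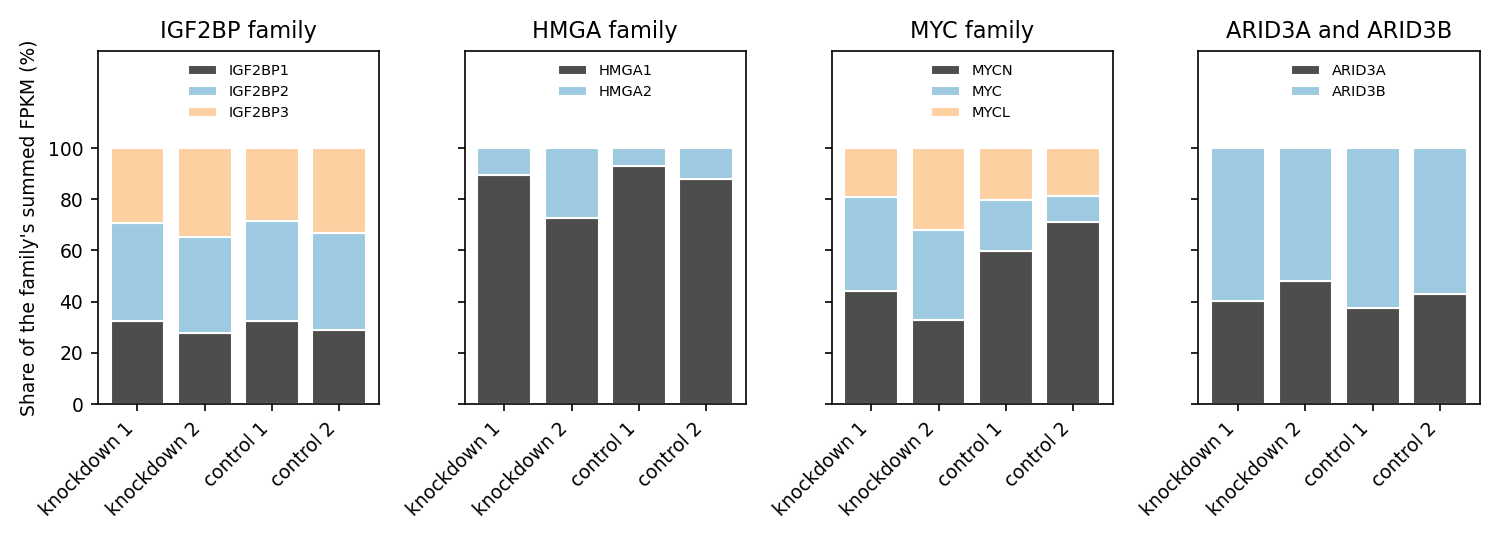
Share of each family's summed FPKM, in percent, taken by each paralogue in the 4 libraries. The MYCN share is 44.2% and 33.0% in the knockdown libraries, below 60.0% and 71.1% in the controls, whereas the IGF2BP shares differ more between libraries of a group than between groups.

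HMGA1 and HMGA2 encode small architectural chromatin proteins that bind the minor groove of AT-rich DNA, and HMGA2 is among the best-studied let-7 targets. HMGA1, on chromosome 7 at 30320090 to 30329413, had the highest level per length of all members. It had 418 and 257 FPKM in knockdown 1 and 2, against 572 and 463 FPKM in control 1 and 2. The groups did not overlap, but the log2 fold change was −0.42 ± 0.28 (SE; edgeR p 0.185 unadjusted and 0.63 adjusted). Its 95% interval was −1.13 to 0.28.

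HMGA2, on chromosome 5 at 30188521 to 30329635, had 49.4 and 96.6 FPKM in knockdown 1 and 2, against 43.0 and 63.2 FPKM in control 1 and 2. Knockdown 1 lay between the controls and knockdown 2 lay above all other libraries, so the groups overlapped. The log2 fold change was 0.75 ± 0.50 (SE; adjusted edgeR p 0.632), and its 95% interval was −0.52 to 2.02. It was −0.12 without knockdown 2 and 1.31 without knockdown 1. The ratio of HMGA1 to HMGA2 FPKM was 8.46 and 2.66 in the knockdown libraries and 13.3 and 7.31 in the controls, with an exact two-sided permutation p of 0.667. The table's own counts and FPKM imply an effective length of 1103 bases for HMGA2, the shortest of the members, against 10405 bases for PRTG. Among other high-mobility-group genes, HMGB2 had a log2 fold change of −0.34 ± 0.26 (SE), and HMGN1 one of −0.33 ± 0.26 (SE), while HMGB1 was at 0.21 ± 0.30 (SE).

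IGF2BP1, IGF2BP2 and IGF2BP3 are oncofetal RNA-binding proteins that bind and stabilise messages such as those of IGF2 and MYC. IGF2BP1, on chromosome 12 at 25196955 to 25244660, had 67.9 and 43.3 FPKM in knockdown 1 and 2, against 78.5 and 64.3 FPKM in control 1 and 2. IGF2BP2, on chromosome 13 at 123485619 to 123650050, had 80.8 and 58.4 FPKM against 93.4 and 83.9 FPKM. IGF2BP3, on chromosome 9 at 92104786 to 92272264, had 61.2 and 54.0 FPKM against 69.0 and 73.8 FPKM. Only IGF2BP2 had both knockdown libraries below both controls on every scale tried; IGF2BP3 did so in FPKM, in total counts and with upper-quartile factors, but not with TMM or DESeq2 size factors, and IGF2BP1 overlapped on all of them. The log2 fold changes were −0.17 ± 0.24, −0.16 ± 0.23 and −0.08 ± 0.24 (SE) for IGF2BP1, IGF2BP2 and IGF2BP3. Their 95% intervals ran from −0.78 to 0.44, from −0.74 to 0.43 and from −0.70 to 0.53, so differences of up to those sizes in either direction were not resolved. The adjusted edgeR p was between 0.802 and 0.909.

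The balance among the 3 IGF2BP genes differed more between libraries of a group than between the groups. IGF2BP1 held 32.3% of their summed FPKM in knockdown 1 and 27.8% in knockdown 2, against 32.6% in control 1 and 29.0% in control 2. IGF2BP3 held 29.2% and 34.7% in the knockdown libraries and 28.7% and 33.2% in the controls. The summed FPKM of the family was 210 and 156 in the knockdown libraries and 241 and 222 in the controls. IGF2, whose message gave the family its name, had only 25 and 10 reads in the knockdown libraries and 14 and 3 in the controls. Its FPKM was 2.88 and 3.84 against 1.1 and 0.39, and edgeR gave 2.28 ± 0.68 on the log2 scale (SE; adjusted p 0.541). Of 16 tested messages and binding partners listed for the IGF2BP proteins, there were 11 positive and 5 negative values and a median of 0.30, and IGF2, CD44 and MAPK4 had an unadjusted p under 0.05. MAPK4, a kinase whose message is known to be bound by IGF2BP1 in human cells, had 5.02 and 2.77 FPKM against 7.54 and 7.53 FPKM, and CD44, a hyaluronan receptor, had 0.06 and 0.20 FPKM against 0.38 and 2.64 FPKM. IGF2BP proteins also read m6A marks on RNA. Of the 13 writers, erasers and readers of m6A, there were 8 positive and 5 negative values and a median of 0.35. ALKBH5, an m6A demethylase, alone had an unadjusted p under 0.05, with 16.9 and 18.8 FPKM in the knockdown libraries and 12.8 and 10.8 FPKM in the controls.

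**Figure D4:**
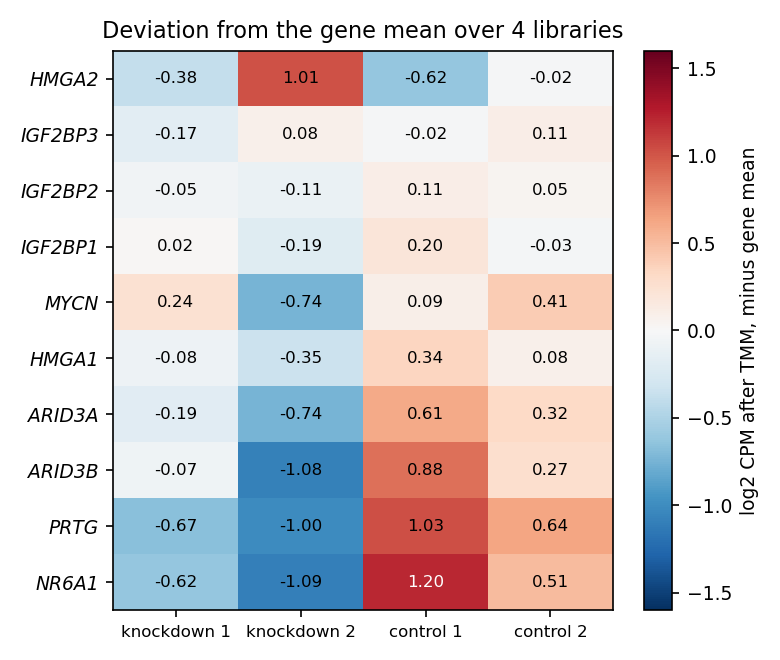
Log2 CPM after TMM scaling minus each gene's mean over the 4 libraries, with genes ordered from the highest to the lowest log2 fold change. PRTG and NR6A1 are negative in both knockdown libraries and positive in both controls, and in knockdown 2 HMGA2 is at 1.01, while NR6A1, ARID3B, PRTG, MYCN and ARID3A lie between −1.09 and −0.74.

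The order of the levels per length was led by HMGA1 in both groups, and its libraries were separate from those of every other member. In the knockdown, HMGA2, IGF2BP2, IGF2BP3 and IGF2BP1 followed with means of 73.0, 69.6, 57.6 and 55.6 FPKM, and neighbours among these 4 overlapped. In the controls, IGF2BP2 at 88.6 FPKM came next, followed by IGF2BP3 and IGF2BP1, which overlapped at 71.4 FPKM each, and by HMGA2 at 53.1 FPKM. PRTG stood sixth in the controls at 31.5 ± 6.61 FPKM (SD, n = 2) and eighth in the knockdown at 8.66 ± 3.16 FPKM (SD, n = 2). Neighbours among MYCN, ARID3B, PRTG and ARID3A overlapped in both groups. NR6A1 was last in both, at 3.46 ± 1.44 FPKM in the knockdown and 13.0 ± 4.69 FPKM in the controls (SD, n = 2). It lay apart from ARID3A in the knockdown but overlapped with it in the controls. Together the 10 genes took 0.189% and 0.131% of all counts in knockdown 1 and 2, against 0.271% and 0.23% in control 1 and 2.

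Other genes listed as let-7 targets numbered 66, of which 63 had a row and 60 were tested. Their log2 fold changes split into 31 positive and 29 negative, with a median of 0.01, equal to the median of all tested genes to 2 decimals. Both medians were negative with total counts, at −0.21 for the list and −0.18 for all genes. An unadjusted edgeR p under 0.05 was found for 7 lower and 2 higher genes, where 3.45% of all tested genes were on the lower and 4.26% on the higher side. Groups that did not overlap were found in 15 lower and 9 higher genes of the 60, close to the 22.9% and 18.8% of all tested genes. The 7 included LIN28A itself and LIN28B, its paralogue, which had 13.7 and 10.2 FPKM in the knockdown libraries and 25.1 and 19.0 FPKM in the controls. SALL4, a zinc finger protein of the pluripotency network and listed with those markers too, had 7.71 and 3.25 FPKM against 19.2 and 19.2 FPKM, and TRIM71, the vertebrate relative of worm lin-41, had 7.19 and 4.32 FPKM against 9.33 and 11.08 FPKM. Both knockdown libraries lay below both controls in each of these 4 genes. IGDCC3, E2F5 and LRIG3 were the other lower genes, with log2 fold changes of −1.27, −0.80 and −1.75. E2F5 is an E2F family transcription factor, and its FPKM was 53.2 and 25.4 in the knockdown libraries and 79.0 and 76.2 in the controls. MYC and LOXL4, a lysyl oxidase of the matrix, were the 2 higher genes, and LOXL4 had 1.64 and 1.19 FPKM against 0.32 and 0.48 FPKM.

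Of the targets often studied with let-7, CCND2, CDC25A and DICER1, named after their values were seen, had small differences. Others of the list differed more, in both directions, such as CDC34 at 0.83 ± 0.35 and HIC2 at −0.44 ± 0.29 (SE) on the log2 scale. CCND2, a cyclin of the G1 phase, had 87.9 and 58.6 FPKM in the knockdown libraries and 62.1 and 87.2 FPKM in the controls, and CDC25A, a phosphatase that activates cyclin-dependent kinases, had 21.5 and 14.5 FPKM against 22.5 and 24.3 FPKM. In CCND2 the groups overlapped, and in CDC25A both knockdown libraries were lower, with a log2 fold change of −0.17 ± 0.20 (SE). DICER1, which cuts let-7 precursors and is a target as well, had 25.7 and 23.0 FPKM against 28.0 and 27.2 FPKM, and its log2 fold change was −0.01 ± 0.23 (SE). Of the enzymes and binding proteins of let-7 maturation and action, 21 were tested, with 14 positive and 7 negative and a median of 0.12. MSI2, a Musashi RNA-binding protein of stem cells, alone had an unadjusted p under 0.05, with 28.5 and 44.0 FPKM in the knockdown libraries and 15.3 and 19.2 FPKM in the controls.

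Markers of other cell types differed between the libraries as well. All 19 tested fibroblast genes had positive log2 fold changes, with a median of 1.31, and their median relative to the control mean was −0.06 in knockdown 1 and 2.16 in knockdown 2. The summed level of the 22 listed fibroblast genes with a row was 504 and 1484 FPKM in knockdown 1 and 2, against 363 and 658 FPKM in control 1 and 2. Its order over the 4 libraries was that of HMGA2, a gene that mesenchymal cells of the embryo are known to express. The sums of the HOX and blood lists had the same order. COL6A2, a collagen and the only 1 of the tested fibroblast genes with an unadjusted p under 0.05, had 3.29 and 8.24 FPKM against 1.19 and 2.47 FPKM. COL1A1, a defining collagen, had 56.5 and 206 FPKM in the knockdown libraries and 17.6 and 52.8 FPKM in the controls, while DCN was at 0 in both knockdown libraries and LUM was at 0 in knockdown 2 and both controls. The part of fibroblasts in the HMGA2 values was not tested. The pluripotent list without LIN28A summed to 240 and 114 FPKM in knockdown 1 and 2, against 231 and 209 FPKM in control 1 and 2. It was lowest in knockdown 2, as were the neural, endoderm and trophectoderm sums and the FPKM of every member other than HMGA2. The TMM factor of knockdown 2, 0.798, was the lowest of the 4 libraries, so its levels stand lower in FPKM than after TMM scaling. On TMM-scaled log2 CPM, knockdown 2 was still the lowest library for these members except IGF2BP3. IGF2BP3 was then 0.037 above the control mean in knockdown 2. In knockdown 1 the pluripotent sum was above both controls, with SOX2 giving 109 of the 240 FPKM. SALL4 and EPCAM of the same list were below both controls. Relative to the control mean, PRTG and NR6A1 were at −1.50 and −1.48 in knockdown 1, ARID3A and ARID3B were at −0.65 each, and MYCN was at −0.01. The part of the pluripotent markers in these values was not tested.

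**Figure D5:**
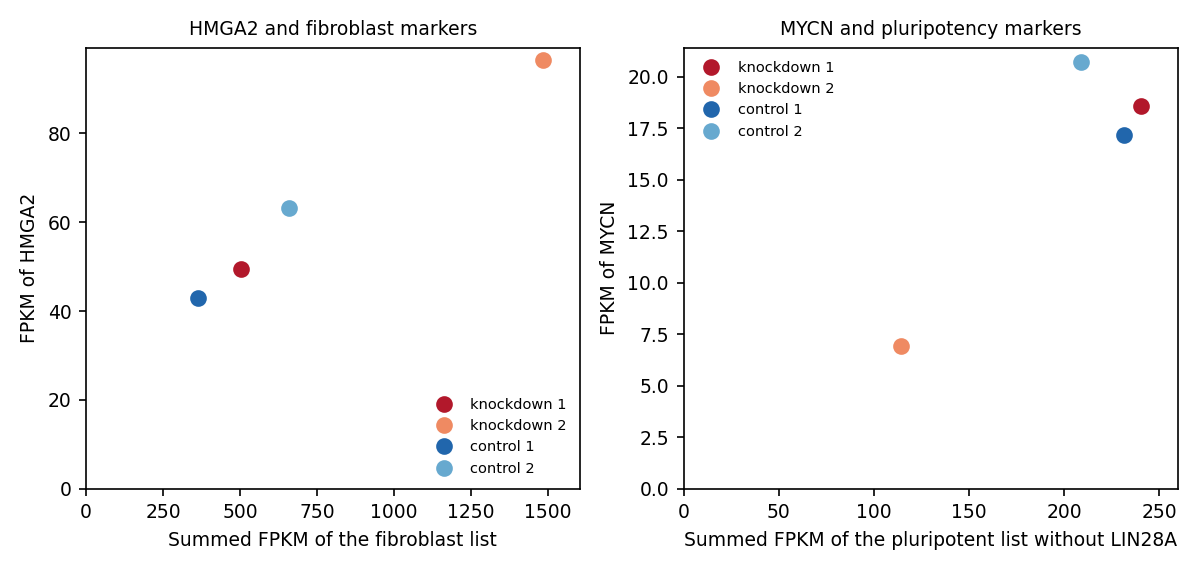
FPKM of HMGA2 against the summed FPKM of the fibroblast list (left) and FPKM of MYCN against the summed FPKM of the pluripotent list without LIN28A (right), 1 point per library. Knockdown 2 has the highest fibroblast sum, 1484, with the highest HMGA2, and the lowest pluripotent sum, 114, with the lowest MYCN. It also has the highest HOX and blood sums and the lowest neural, endoderm and trophectoderm sums, which are not drawn.

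The remaining marker lists are given because several members are also genes of the early nervous system or of other lineages. Neural markers had 12 of 16 positive log2 fold changes and a median of 0.71, with sums of 779 and 397 FPKM in the knockdown libraries and 529 and 455 FPKM in the controls. SOX1 was at 0 in all 4 libraries and OTX2 in 3 of them. With an unadjusted edgeR p under 0.05, NEUROD4, a proneural factor, had 10.03 and 9.38 FPKM in the knockdown libraries and 2.08 and 2.79 FPKM in the controls. NEUROG1, NEUROD1, DCX and STMN2, further genes of neurogenesis, were under that threshold too, with log2 fold changes of 1.11, 1.79, 1.47 and 1.07. HOX genes had 17 of 21 positive, with sums of 215 and 319 FPKM against 105 and 267 FPKM, and HOXA2 and HOXD10 were under that threshold at 0.58 and 1.82. The median of the HOX genes relative to the control mean was −0.28 in knockdown 1 and 1.07 in knockdown 2. The controls were farther apart, with a median of 2.11 for control 2 minus control 1 on the log2 scale. The endoderm list had 3 of 3 tested genes negative, with APOA1, an apolipoprotein, under the threshold at −1.42. The trophectoderm list had 5 of 6 negative, led by KRT8, a keratin, with 1.11 and 1.85 FPKM against 14.5 and 38.9 FPKM. KRT18, CDX2 and TFAP2A of that list were under the threshold too, at −3.78, −2.83 and 0.82. Sums were 80.9 and 61.8 FPKM against 121 and 149 FPKM for endoderm, 48.2 and 45.9 against 54.1 and 83.3 FPKM for trophectoderm, and 6.03 and 15.5 against 4.23 and 6.17 FPKM for blood cells, of which 4 of 4 tested were positive. Their part in the members' values was not tested.

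Leaving out knockdown 2 left all 10 members with a negative log2 fold change. Their median was −0.28, beside −0.02 over all tested genes. PRTG was then at −1.54 and NR6A1 at −1.56, with adjusted p of 0.126 and 0.23. Leaving out knockdown 1 gave a median of −0.79, and edgeR then called PRTG, NR6A1, ARID3A and ARID3B, with adjusted p of 0.0388, 0.045, 0.0411 and 0.0454. In that fit 9.88% of 12183 tested genes were called, 1110 of them higher and 94 lower, and the lone knockdown library is assumed to vary like the controls.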

How the data were processed

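RNA of 4 libraries was selected with oligo-dT and sequenced on a BGISEQ-500, per the labels' protocols. Expected counts were estimated by the authors with RSEM 1.2.12, with Bowtie2 and the build Sscrofa11.1 also named, per the submitters' processing notes; the sources used here give neither settings nor strandedness, so overlapping genes and near-identical copies are uncertain. A second set of deposited columns is read as FPKM, a unit inferred from the values. Positions come from a RefSeq gene table of Sscrofa11.1, which matched all 16026 identifiers.

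Expected counts were rounded and tested with edgeR 4.0.16 in R 4.3.3 (TMM, filterByExpr, quasi-likelihood test without covariate, 2 residual and 3.30 prior degrees of freedom). P-values were Benjamini-Hochberg adjusted over all 11967 tested genes, with a threshold of 0.05. Overlap and single-library differences were taken on TMM-scaled log2 CPM (prior count 2). CPM are counts over the summed count of a library, and their Poisson intervals (95%) cover counting error only. Alternatives were DESeq2 1.42.0, other factors, no filter, limma 3.58.1 on log2(FPKM + 1), a replicate block and leaving out each library. The code was tested on simulated data.

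The members and the gene lists were chosen with earlier results of these data known, and no p was adjusted over a list. From each list, genes with an unadjusted edgeR p under 0.05 were named, at most 8; other list genes were named after their values were seen.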

Additional observations from a re-analysis of the deposited data

How the results depend on the processing

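Of 110 refits of single members under 11 alternatives, 98 kept the direction and the side of the threshold, 10 passed the threshold and 2 changed direction: HMGA2 was at −0.12 without knockdown 2 (range −0.12 to 1.31 with 1 library left out), and IGF2BP3 at 0.032 without knockdown 1 (range −0.23 to 0.032). The number of called members was 2 in DESeq2 and ranged from 0 to 4 with 1 library left out. The number of called genes was 139 in DESeq2, 8 with total counts, 40 with every gene of at least 1 count, and 0 to 1204 with 1 library left out. The median of the members was −0.66 on log2(FPKM + 1) and −0.79 to −0.28 with 1 library left out; minus the median of all genes it was −0.42 as reported, −0.48 to −0.40 with other tools and scalings and −0.70 to −0.26 with 1 library left out. The median of the other let-7 targets was 0.032 in DESeq2, 0.034 with DESeq2 size factors in edgeR, −0.10 with upper-quartile factors, −0.21 with total counts, −0.19 on log2(FPKM + 1) and −0.072 to 0.036 with 1 library left out. The cause of these shifts was not tested. Without control 1 no gene was called, and the adjusted edgeR p of PRTG was 1.00. The sample titles end in 1 and 2 in both groups, but nothing says that a number marks a shared culture or batch. Over 11967 genes, same-numbered libraries deviated from their group means with a correlation of 0.56 (2 pairs, genes not independent). With that number as a replicate block, an alternative added after seeing the data, edgeR called 1338 genes, 306 lower and 1032 higher, and 4 members (ARID3A, ARID3B, NR6A1 and PRTG). That fit keeps 1 residual degree of freedom per gene and set each gene's spread fully to the trend over genes, so its p-values rest on that trend. Knockdown 2, with 2400985 counts, has a floor of 1.25 CPM for 3 counts and limits the precision of LIN28A, IGF2 and CD44.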
